A study of Saccharomyces cerevisiae with 18 samples.

Results

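The 10 genes described here encode subunits of yeast RNA polymerase I and the initiation factor Rrn3: *RPA190*, *RPA135*, *RPC40*, *RPC19*, *RPA49*, *RPA34*, *RPA43*, *RPA14*, *RPA12* and *RRN3*. They were taken by gene symbol from the deposited tables, and all 10 were found, each with 1 probe set, among 5698 *S. cerevisiae* genes tested. The 5 subunits that RNA polymerase I has in common with both other nuclear polymerases are not among the 10 and are treated as a list of their own. RNA was hybridized to 12 Affymetrix GeneChip Yeast Genome 2.0 arrays, 3 for each of 4 groups. The groups were W303-Δ*sky1* treated with cisplatin, W303 treated with cisplatin, untreated W303-Δ*sky1* and untreated W303. W303 is a *MATa* laboratory strain with mutant alleles of *ADE2*, *LEU2*, *URA3*, *TRP1* and *CAN1*, to which the study's methods add *HIS3*, and W303-Δ*sky1* derives from it by deletion of *SKY1*, which encodes a kinase of SR proteins. All cultures were grown in SD medium, and those of each strain were split into aliquots that received either 600 µM cisplatin in DMSO for 4 h or DMSO alone. Untreated therefore means DMSO alone throughout. The deletion was studied in 1 strain, and the replicates were separate cultures of it.

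RNA polymerase I makes a single product, the precursor of the large ribosomal RNAs, from the repeated rDNA genes, and this synthesis is a main cost of fast growth in yeast. Rpa190 and Rpa135 form the catalytic core, on an assembly platform of Rpc40 and Rpc19. Rpa43 and Rpa14 form the stalk, Rpa49 and Rpa34 form a heterodimer that acts in initiation and elongation, and Rpa12 takes part in cleavage of the transcript. Rrn3 binds the stalk and makes the enzyme competent to start at the rDNA promoter. The arrays measured the mRNAs of these proteins, not the ribosomal RNA that the enzyme makes.

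Values are log2 signals from RMA, the normalization that the authors ran separately for each of the 3 comparisons, so that each W303 array has a value in a pair of tables. Per-array values are given in the order of the replicate numbers. Probe sets without an *S. cerevisiae* gene, among them those for *S. pombe*, were taken here as background. The 95th percentile of their values lay between 1.24 and 1.35. The lowest value of any of the 10 genes on any array was 3.60. The *SKY1* probe set read 0.54 to 1.43 on W303-Δ*sky1* arrays, against 7.98 to 8.18 on W303 arrays. The **a**-specific genes mark *MATa* cells, and their rises and falls are calls at the threshold given in the next paragraph. Relative to W303 with the same treatment, 6 of 6 fell in treated and 5 in untreated W303-Δ*sky1*, against 37.8% and 27.4% of all genes. The log2 values of these 6 genes summed to 42.6 to 43.6 on W303-Δ*sky1* arrays, against 48.1 to 48.8 on W303 arrays. The lowest of them on any array was 4.38. Of 4 α-specific genes, which mark the other mating type, 1 rose in treated W303-Δ*sky1*, *SAG1* by 0.27, and 1 in untreated, *STE3* by 0.41. Rises were called in 32.8% and 24.9% of all genes there. The lowest of the 4 on each array read 1.07 to 1.86, at or near background. The highest, *SAG1*, read 6.70 to 7.27, well above background on every array. With cisplatin in W303, the **a**-specific *BAR1* rose by 0.52, and the log2 fold changes of *MFA1* and *SAG1* were -0.21 and -0.30, both falls. Rises were called in 13.2% and falls in 15.3% of all genes there. The part of these marker differences in the results was not tested.

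Of the polymerase I genes, 3 of 10 changed with cisplatin in W303, 7 of 10 with deletion of *SKY1*, and under cisplatin all 10 differed between the strains. A gene is called here at a Benjamini-Hochberg adjusted p under 0.05 from limma over all genes tested, 3 arrays against 3. DEG, for differentially expressed gene, is kept for a called gene that also changed at least 1.6-fold with an unadjusted p under 0.01. With cisplatin in W303, 1 of the 10 genes rose and 2 fell, against 13.2% and 15.3% of all genes tested. In this fit without pairing, the calls together were near the share over all genes. With the replicate number as a block, which pairs aliquots of the same culture, 1 rose and 5 fell. Of all genes, 15.2% rose and 17.4% fell in the same fit, so the falls were above the share over all genes there. In untreated W303-Δ*sky1* relative to untreated W303, 1 rose and 6 fell, against 24.9% and 27.4% of all genes. In treated W303-Δ*sky1* relative to treated W303, 2 rose and 8 fell, against 32.8% and 37.8% of all genes. These are amounts per unit of RNA from whole cultures, in which fewer cells with a transcript and less of it per cell cannot be told apart.

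The DEG counts followed the same order. Of the 10 genes, 0 were DEGs by limma with cisplatin in W303, where 5 had an unadjusted p under 0.05, as did 42.1% of all genes. In that comparison 1.58% of all genes were DEGs with a rise and 1.53% with a fall. In untreated W303-Δ*sky1*, *RPA190*, *RPC40* and *RPA49* were DEGs, all 3 with a fall, while 4.93% of all genes were DEGs with a rise and 5.28% with a fall. In treated W303-Δ*sky1*, *RPA190*, *RPC40*, *RPA49*, *RPA34* and *RPA43* were DEGs with a fall and *RRN3* with a rise, against 11.2% and 8.78% of all genes. The median log2 fold change of the 10 genes was -0.20 with cisplatin in W303, -0.46 for the deletion without drug and -0.69 for the deletion under cisplatin. The corresponding medians over all genes tested were -0.0022, -0.02 and -0.03.

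**Figure D1:**
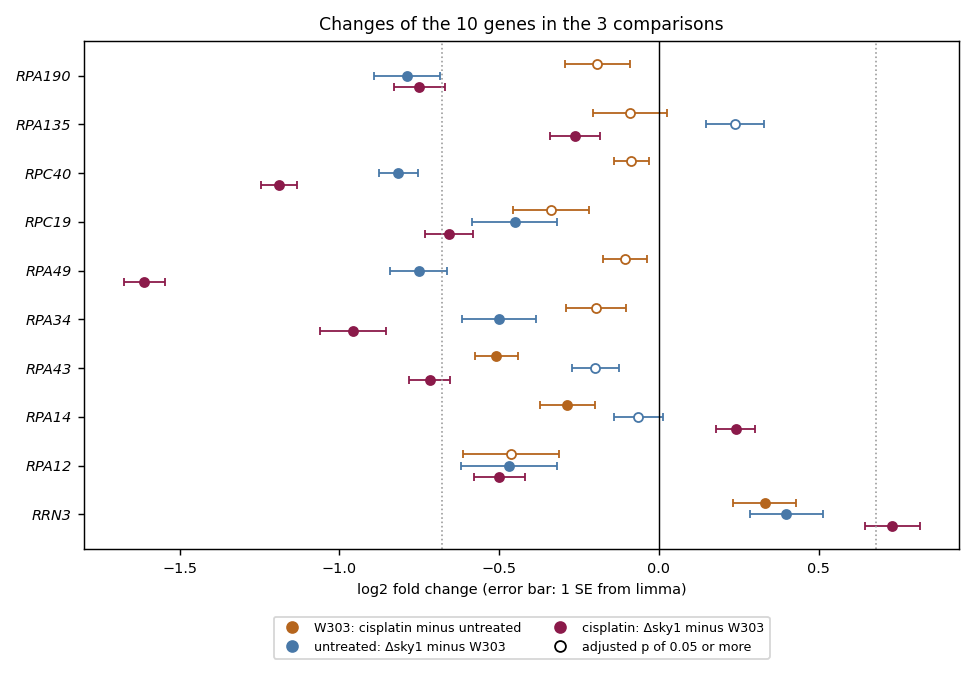
Log2 fold change of each of the 10 genes (horizontal axis, error bars 1 SE from limma) in W303 with cisplatin relative to untreated W303, in untreated Δsky1 relative to untreated W303, and in treated Δsky1 relative to treated W303, 3 arrays a group. Filled points have an adjusted p under 0.05, dotted lines mark a 1.6-fold change, and *RPA49* under cisplatin lies farthest to the left at -1.61.

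*RPA190* encodes the largest subunit, and it was lower in W303-Δ*sky1* by nearly the same amount with and without cisplatin. Its log2 signals were 8.12, 7.98 and 7.87 in untreated W303-Δ*sky1*, against 8.96, 8.62 and 8.76 in untreated W303. They were 7.95, 7.92 and 8.07 in treated W303-Δ*sky1*, against 8.89, 8.63 and 8.66 in treated W303. In both pairs every W303-Δ*sky1* array lay below every W303 array. The log2 fold change was -0.79 ± 0.10 without cisplatin (SE, limma adjusted p = 0.000549) and -0.75 ± 0.08 with it (adjusted p = 4.24e-05). Without treated W303 replicate 1 the second value was -0.67, just under 1.6-fold. In W303 itself cisplatin gave 8.88, 8.67 and 8.65, against 9.11, 8.77 and 8.89 in untreated cells, and these groups overlapped. That difference was -0.19 ± 0.10 (adjusted p = 0.190), and with the replicate block it had an adjusted p of 0.0459. Without untreated W303 replicate 1 it was -0.10 (adjusted p = 0.406).

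*RPA135*, the gene of the second-largest subunit, differed from *RPA190* in that it was not lower in W303-Δ*sky1* without cisplatin. It read 8.48, 8.29 and 8.39 in untreated W303-Δ*sky1*, against 8.28, 7.99 and 8.17 in untreated W303. Every array of the deletion strain was thus higher, by 0.24 ± 0.09 on the log2 scale (SE, limma adjusted p = 0.0559, and 0.0148 with the replicate block). Without untreated W303 replicate 1 the difference was 0.31 with an adjusted p of 0.0246. Under cisplatin the order of the strains was the opposite, with 7.83, 7.66 and 7.81 in treated W303-Δ*sky1*, against 8.17, 7.95 and 7.97 in treated W303. There the gene fell by 0.26 on the log2 scale (SE 0.08, adjusted p = 0.0143), with no overlap of the groups. This call was lost without treated W303-Δ*sky1* replicate 2, where the difference was -0.21 (adjusted p = 0.0516). In W303 the cisplatin arrays read 8.29, 8.07 and 8.06 and the untreated arrays 8.41, 7.99 and 8.29, a difference of -0.09 ± 0.12 within the spread of the replicates (adjusted p = 0.586). It ranged from -0.21 without untreated W303 replicate 2 to -0.0013 without untreated W303 replicate 1.

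*RPC40* encodes the larger platform subunit, which RNA polymerase III also contains. Without cisplatin it had the lowest fold change of the 10 genes between the strains. Its log2 signals were 6.57, 6.61 and 6.57 in untreated W303-Δ*sky1*, against 7.34, 7.38 and 7.48 in untreated W303. In treated W303-Δ*sky1* they were 6.10, 6.17 and 6.23, against 7.37, 7.32 and 7.37 in treated W303. The strains were widely separated in both pairs. The log2 fold changes were -0.82 ± 0.06 (SE, limma adjusted p = 6.98e-05) and -1.19 ± 0.06 (adjusted p = 5.3e-07), the second a 2.28-fold fall. In W303, cisplatin arrays of the gene read 7.45, 7.43 and 7.40, against 7.47, 7.49 and 7.58 in untreated W303. Those groups did not overlap, but the difference was small, -0.09 ± 0.06 (adjusted p = 0.273), and -0.05 without untreated W303 replicate 3.

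*RPC19*, the gene of the smaller platform subunit, also shared with RNA polymerase III, was lower in W303-Δ*sky1*, with wider replicates. Under cisplatin it read 6.09, 6.05 and 6.21 in W303-Δ*sky1*, against 6.64, 6.82 and 6.86 in W303. The log2 fold change was -0.66 ± 0.07 (SE, limma adjusted p = 6.2e-05), and it passed 1.6-fold without treated W303-Δ*sky1* replicate 3 (-0.70) or treated W303 replicate 1 (-0.72). Without cisplatin it read 6.40, 6.45 and 6.61 in W303-Δ*sky1*, against 6.64, 7.16 and 7.02 in W303, and the groups did not overlap. The fold change of -0.45 ± 0.13 passed the test (adjusted p = 0.0218). It did not pass without untreated W303-Δ*sky1* replicate 1 (adjusted p = 0.0731) or 2 (0.0640), nor without untreated W303 replicate 2 (0.0502) or 3 (0.0719). Treated W303 read 6.71, 6.87 and 6.93, against 6.91, 7.36 and 7.26 in untreated W303. Those groups overlapped, and the difference of -0.34 ± 0.12 had an adjusted p of 0.0693. It was called with the replicate block (adjusted p = 0.0162) and without untreated W303 replicate 1, where it was -0.47 (adjusted p = 0.00653).

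**Figure D2:**
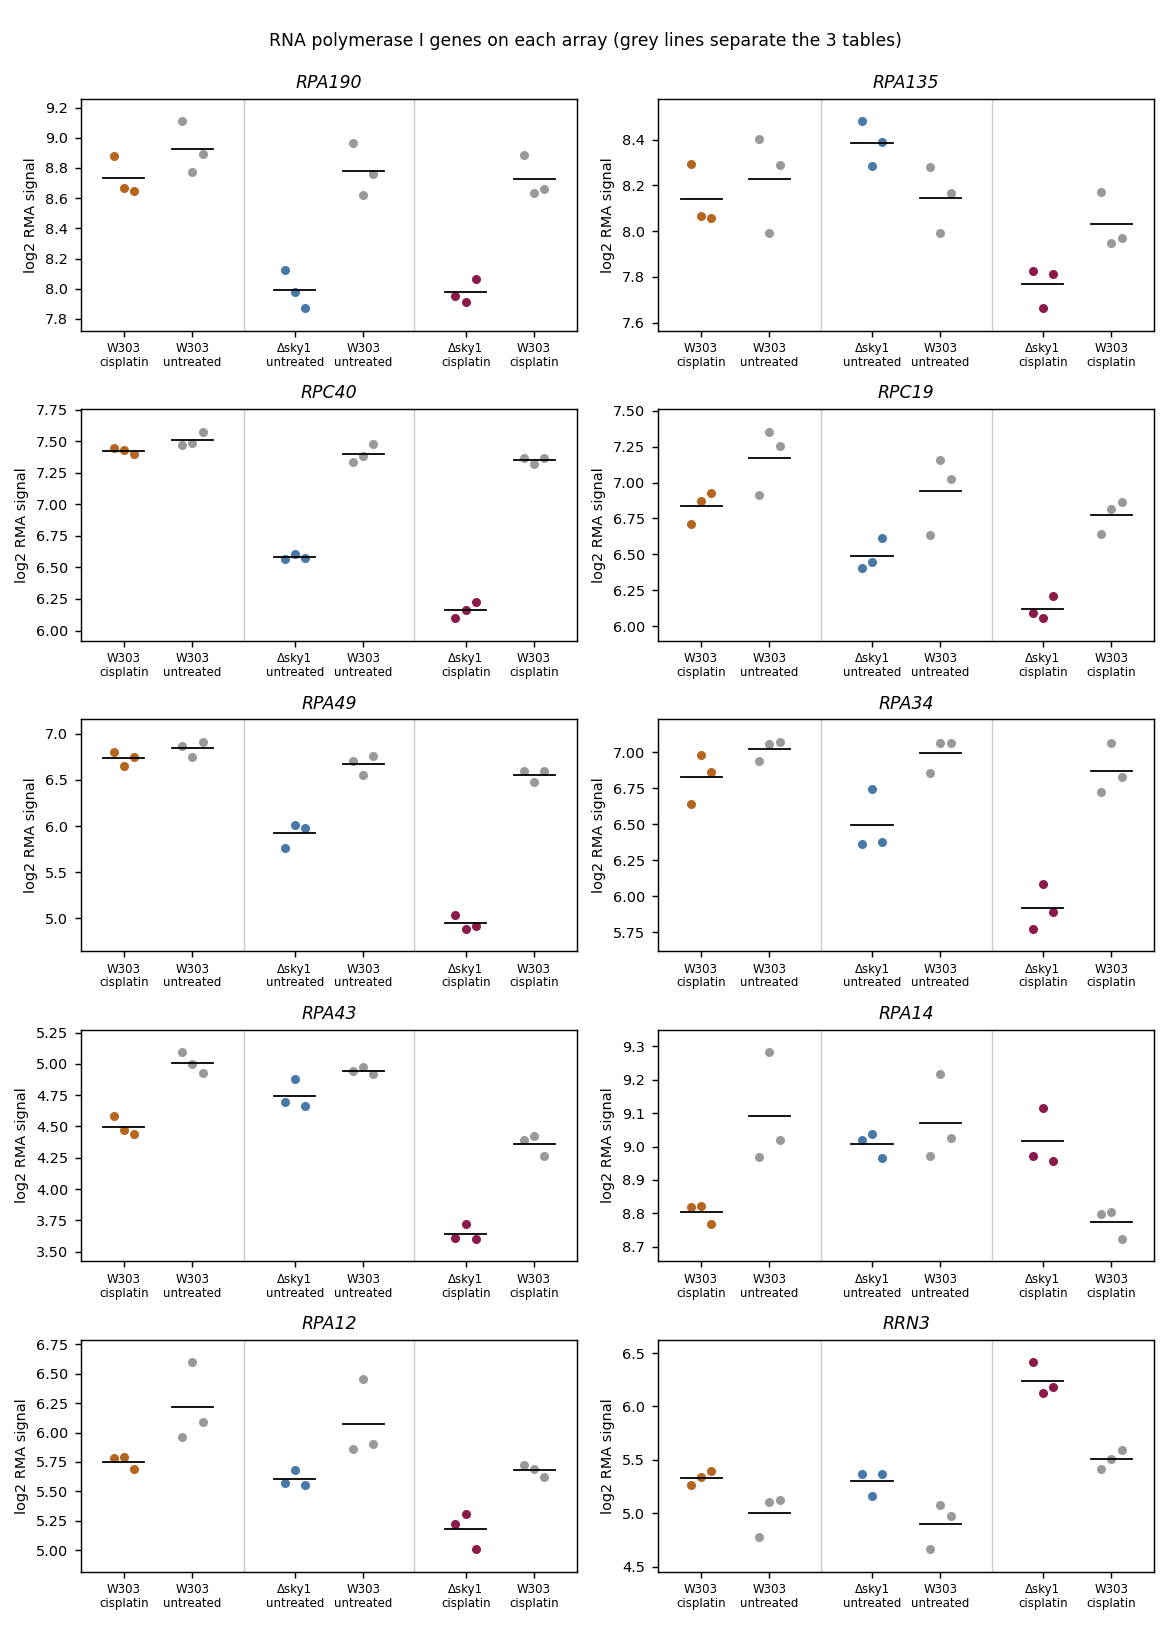
Log2 RMA signal (vertical axes, each with its own range) of the 10 genes on every array, with the 3 tables separated by grey lines and black bars at the group means. *RPC40* and *RPA49* show the widest gaps between treated Δsky1 and treated W303 arrays, and *RRN3* is the only gene whose left-hand group is higher in all 3 tables.

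*RPA49*, the gene of a heterodimer subunit that acts in the start of transcription and in elongation, had the largest fall of the 10 genes under cisplatin. It read 5.04, 4.89 and 4.92 in treated W303-Δ*sky1*, against 6.60, 6.48 and 6.60 in treated W303. The log2 fold change was -1.61 ± 0.06 (SE, limma adjusted p = 2.98e-07), a 3.05-fold fall and rank 36 among the 5698 genes ordered from the lowest fold change. Without cisplatin it read 5.77, 6.01 and 5.98 in W303-Δ*sky1*, against 6.70, 6.55 and 6.76 in W303. The groups did not overlap there either, and the fold change was -0.75 ± 0.09 (adjusted p = 0.000356). It stayed called but fell just short of 1.6-fold, at -0.68, without untreated W303-Δ*sky1* replicate 1. In W303, cisplatin gave 6.80, 6.65 and 6.75, against 6.86, 6.75 and 6.91 in untreated cells, which overlap, with a difference of -0.11 ± 0.07 (adjusted p = 0.272). It was -0.07 without treated W303 replicate 2 or untreated W303 replicate 3.

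*RPA34* encodes the partner of Rpa49. Under cisplatin it read 5.77, 6.08 and 5.89 in W303-Δ*sky1*, against 6.73, 7.06 and 6.83 in W303, and fell by 0.96 on the log2 scale (SE 0.10, limma adjusted p = 4.84e-05). Without cisplatin it read 6.37, 6.75 and 6.37 in W303-Δ*sky1*, against 6.85, 7.07 and 7.06 in W303, and fell by 0.50 (SE 0.12, adjusted p = 0.00807). In both pairs the groups were apart, although replicate 2 of the deletion strain lay above its other two replicates each time. In W303 the cisplatin arrays read 6.64, 6.98 and 6.86 and the untreated arrays 6.94, 7.06 and 7.07. Those overlapped, with a difference of -0.20 ± 0.09 (adjusted p = 0.149), which was -0.10 without treated W303 replicate 1 (adjusted p = 0.354).

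*RPA43*, the gene of the stalk subunit that Rrn3 binds, was the only one of the 10 whose fall with cisplatin in W303 was called in each fit with 1 array left out. It read 4.59, 4.47 and 4.44 in treated W303, against 5.09, 5.00 and 4.93 in untreated W303. The log2 fold change was -0.51 ± 0.07 (SE, limma adjusted p = 0.00167), and the adjusted p stayed between 0.00352 and 0.0118 when each array was left out in turn. Under cisplatin it read 3.61, 3.72 and 3.60 in W303-Δ*sky1*, against 4.39, 4.42 and 4.26 in W303, a fold change of -0.72 ± 0.06 (adjusted p = 1.54e-05). This value was -0.63 after quantile normalization and -0.61 after cyclic loess, both under 1.6-fold and still called. Without drug it read 4.69, 4.88 and 4.66 in W303-Δ*sky1*, against 4.95, 4.98 and 4.92 in W303. All 3 deletion arrays were lower, with a fold change of -0.20 ± 0.07 (adjusted p = 0.0514). With the replicate block the adjusted p was 0.0373, and without untreated W303-Δ*sky1* replicate 2 the difference was -0.27 with an adjusted p of 0.0186.

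*RPA14*, the gene of the other stalk subunit, was the only subunit gene higher in W303-Δ*sky1* under cisplatin. It read 8.97, 9.12 and 8.96 there, against 8.80, 8.80 and 8.72 in treated W303, a rise of 0.24 ± 0.06 (SE, limma adjusted p = 0.00738). Without cisplatin the strains overlapped, with 9.02, 9.04 and 8.97 in W303-Δ*sky1*, against 8.97, 9.22 and 9.03 in W303. That difference, -0.06 ± 0.08 (adjusted p = 0.517), was 0.0089 without untreated W303 replicate 2 and -0.11 without untreated W303 replicate 1. In treated W303 the gene read 8.82, 8.82 and 8.77, against 8.97, 9.28 and 9.02 in untreated W303, so all treated arrays were lower. The log2 fold change of -0.29 ± 0.09 had an adjusted p of 0.0428, and without untreated W303 replicate 2 it was -0.19 (adjusted p = 0.0423). The call was lost without treated W303 replicate 1 (adjusted p = 0.0962), 2 (0.103) or 3 (0.129) and without untreated W303 replicate 3 (0.0722). It was also lost after quantile normalization (adjusted p = 0.0604) or cyclic loess (0.0726).

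*RPA12* encodes the small subunit that takes part in transcript cleavage. Its difference between the strains was much the same with and without cisplatin. It read 5.22, 5.31 and 5.01 in treated W303-Δ*sky1*, against 5.73, 5.69 and 5.62 in treated W303. Without cisplatin it read 5.57, 5.68 and 5.56 in untreated W303-Δ*sky1*, against 5.86, 6.46 and 5.90 in untreated W303. The groups were apart in both pairs, and untreated W303 replicate 2 stood well above the other arrays of its group. The fold change was -0.50 ± 0.08 under cisplatin (SE, limma adjusted p = 0.000518) and -0.47 ± 0.15 without it (adjusted p = 0.0309). Without untreated W303 replicate 2 the untreated value was -0.28 and was still called. It was not called without untreated W303-Δ*sky1* replicate 1 (adjusted p = 0.0844), 2 (0.0549) or 3 (0.0842). In treated W303 the gene read 5.78, 5.79 and 5.69, against 5.96, 6.60 and 6.09 in untreated W303, with no overlap. That fold change of -0.46 ± 0.15 had an adjusted p of 0.0535. It was -0.27 with an adjusted p of 0.0236 without untreated W303 replicate 2, and -0.59 with an adjusted p of 0.0174 without untreated W303 replicate 1.

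*RRN3*, the gene of the factor that carries the polymerase to the promoter, was the only one of the 10 genes that rose in all 3 comparisons. It read 6.41, 6.13 and 6.18 in treated W303-Δ*sky1*, against 5.42, 5.51 and 5.60 in treated W303. The rise of 0.73 ± 0.09 (SE, limma adjusted p = 7.44e-05) was 0.64, under 1.6-fold, without treated W303-Δ*sky1* replicate 1. In untreated W303-Δ*sky1* it read 5.37, 5.17 and 5.37, against 4.66, 5.08 and 4.97 in untreated W303, a rise of 0.40 ± 0.11 (adjusted p = 0.0202). That call was lost without untreated W303-Δ*sky1* replicate 1 (adjusted p = 0.0680) or 3 (0.0651). Treated W303 read 5.26, 5.34 and 5.40, against 4.78, 5.11 and 5.12 in untreated W303, a rise of 0.33 ± 0.10 (adjusted p = 0.0402), which was 0.22 without untreated W303 replicate 1 (adjusted p = 0.0392). Groups did not overlap in any of the 3 tables, and untreated W303 replicate 1 was the lowest array in both tables that hold it. The call in W303 was lost without treated W303 replicate 1 (adjusted p = 0.0705), 2 (0.109) or 3 (0.128), and without untreated W303 replicate 3 (0.0504). It was also lost after quantile normalization (0.0521), cyclic loess (0.0534) or median centring (0.0524), with the rise between 0.32 and 0.33 in each.

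Over the 10 genes, all treated W303 arrays lay above all untreated ones for 1 gene and below them for 4, against 22.6% and 23.9% of all genes tested. For untreated W303-Δ*sky1* relative to untreated W303 these counts were 2 and 7, against 29.5% and 32.5% of all genes, and *RPA14* was the gene with overlapping groups. For treated W303-Δ*sky1* relative to treated W303 they were 2 and 8, against 34.7% and 39.2% of all genes. The replicate numbers pair the arrays, since arrays of the same number deviated together. With the number as a block, the falls added with cisplatin in W303 were *RPA190*, *RPC19* and *RPA12*. With the block, 2 rose and 7 fell in untreated W303-Δ*sky1*, against 26.4% and 29.3% of all genes in the same fit, the added ones being *RPA135* and *RPA43*.

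The strain difference with cisplatin and the strain difference without it come from separate tables that were normalized apart, so they are set side by side with no test. *RPA49* had -1.61 with cisplatin and -0.75 without it, the widest gap of the 10 genes at -0.86. *RPA43*, *RPA135*, *RPA34*, *RPC40* and *RPC19* were also lower under cisplatin than without it, by -0.52, -0.50, -0.46, -0.37 and -0.20 in that order. *RPA190* and *RPA12* had gaps of 0.04 and -0.03, and *RPA14* and *RRN3* had 0.30 and 0.33. Adding the cisplatin change in W303 to this gap gives an indirect cisplatin change in W303-Δ*sky1*, again with no test. It was lowest for *RPA43* at -1.03 and *RPA49* at -0.97, and highest for *RRN3* at 0.66. Its median was -0.52 over the 10 genes and -0.03 over all genes tested.

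The mRNAs of proteins that sit together in the enzyme were compared in 4 pairs. The comparison was made by the difference of its log2 signals on every array, with an exact two-sided permutation test of 3 arrays against 3, which cannot give a p below 0.1. The test exchanged arrays freely and did not use the replicate pairing. In all 15 comparisons were made this way, with *RPA43* minus *RPA190*, described below, counted in. Those with an exact p = 0.1 have a Benjamini-Hochberg adjusted value of 0.167, so none passes. For the catalytic pair, the change of *RPA190* minus that of *RPA135* was -1.03 in untreated and -0.49 in treated W303-Δ*sky1*, and -0.10 with cisplatin in W303, with no overlap of the arrays in any of them (exact p = 0.1 each). With cisplatin in W303 the arrays were only just apart. Less the untreated W303 mean, the highest treated value was -0.097 and the lowest untreated value -0.092. For the stalk, *RPA43* minus *RPA14* was -0.96 in treated W303-Δ*sky1* (exact p = 0.1). It was -0.14 in untreated W303-Δ*sky1* and -0.22 with cisplatin in W303, with overlap in both (exact p = 0.2 each).

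For the heterodimer, *RPA49* minus *RPA34* was -0.65 in treated W303-Δ*sky1* (exact p = 0.1) and -0.25 in untreated W303-Δ*sky1* (exact p = 0.2). For the platform, *RPC40* minus *RPC19* was -0.53 in treated and -0.36 in untreated W303-Δ*sky1*, without overlap (exact p = 0.1 each). Both of these pairs overlapped with cisplatin in W303, at 0.09 for the heterodimer (exact p = 0.7) and 0.25 for the platform (exact p = 0.3).

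**Figure D3:**
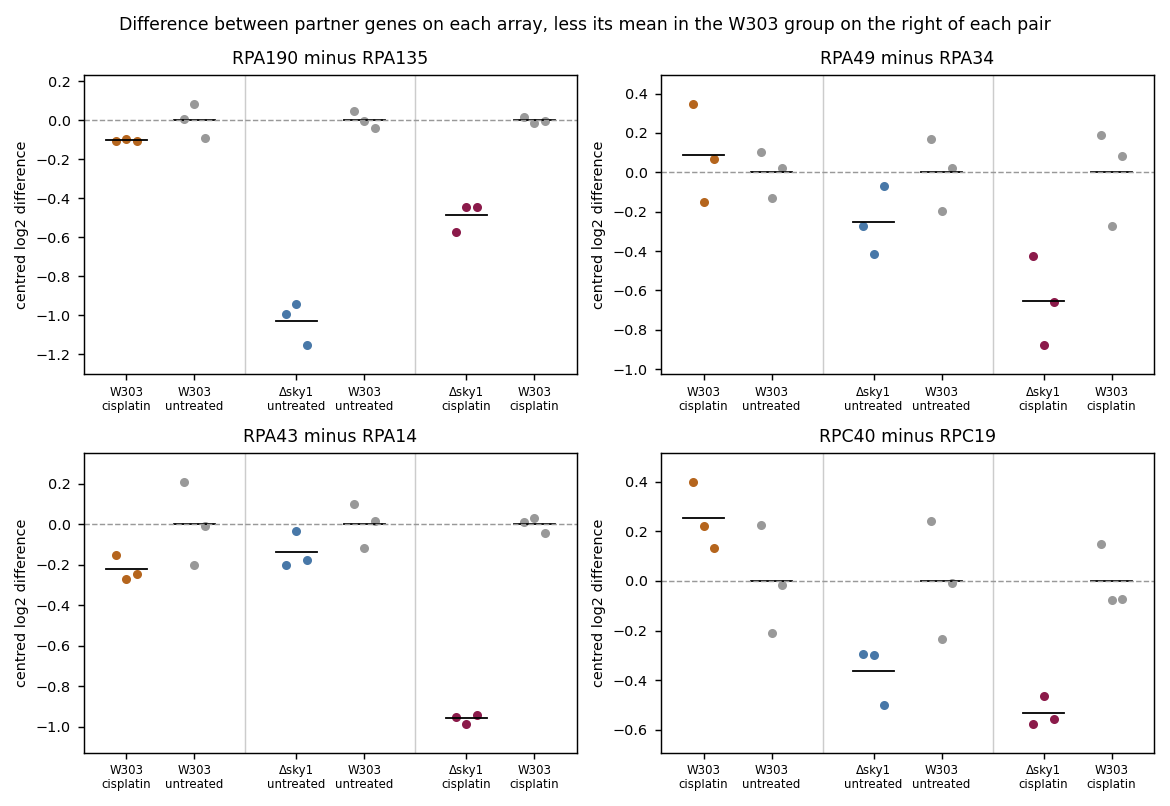
Log2 signal of one partner gene minus that of the other on each array, less the mean of this difference in the W303 group on the right of each pair (vertical axes), with black bars at the group means. For *RPA190* minus *RPA135* the untreated Δsky1 arrays have a mean of -1.03 and the treated Δsky1 arrays one of -0.49.

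The 5 subunits common to RNA polymerases I, II and III, *RPB5*, *RPO26*, *RPB8*, *RPB10* and *RPC10*, all fell in W303-Δ*sky1*. The median was -0.79 under cisplatin and -0.59 without it, and 5 of 5 were called in each, against falls in 37.8% and 27.4% of all genes. *RPC10*, which encodes a zinc-binding subunit, fell most, with log2 fold changes of -1.07 under cisplatin and -1.03 without it. With cisplatin in W303, 1 of the 5 was called, *RPO26* at -0.40 (limma adjusted p = 0.0143), and the median was -0.17. Falls were called in 15.3% of all genes there.

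RNA polymerase III transcribes the tRNA and 5S rRNA genes. Of 10 of its subunits outside the platform, 5 fell in treated W303-Δ*sky1* (median -0.19) and 3 in untreated W303-Δ*sky1* (median -0.16), against 37.8% and 27.4% of all genes. *RPC17* had the lowest log2 fold changes, -0.83 and -0.67 in the same order. None of the 10 was called with cisplatin in W303 by limma. There 2 of the 10 had an unadjusted p under 0.05, against 42.1% of all genes. Among 7 subunits of RNA polymerase II, which makes mRNA, 2 rose and 4 fell in treated W303-Δ*sky1* (median -0.24) and 1 rose and 1 fell in untreated W303-Δ*sky1* (median -0.11). Of all genes, 32.8% rose and 37.8% fell in treated W303-Δ*sky1*, and 24.9% and 27.4% in untreated W303-Δ*sky1*. *RPO21*, the gene of the largest polymerase II subunit, rose by 0.54 and 0.49, the opposite direction to *RPA190*, and *RPB9* fell, with -0.58 and -0.53. Of the 7, *RPB3* alone was called with cisplatin in W303, at 0.22 (adjusted p = 0.0459), against rises in 13.2% of all genes. Differences between these lists were not tested.

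**Figure D4:**
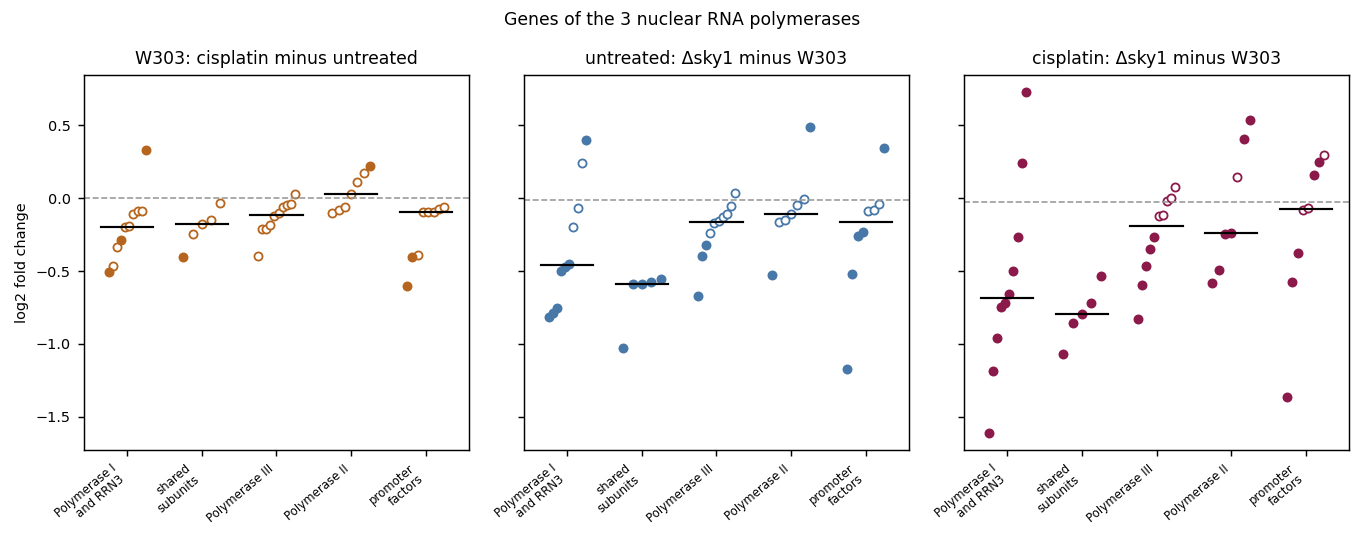
Log2 fold change (vertical axis) of each gene in 5 lists, in W303 with cisplatin relative to untreated W303, untreated Δsky1 relative to untreated W303 and treated Δsky1 relative to treated W303. Filled points have an adjusted p under 0.05, black bars are list medians and dashed lines the median of all genes; the shared subunits and the 10 polymerase I genes have the lowest medians in the 2 strain comparisons.

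Of 8 genes for factors that place the polymerase on the rDNA promoter, 2 rose and 3 fell in treated W303-Δ*sky1* (median -0.07), close to the 32.8% and 37.8% of all genes. In untreated W303-Δ*sky1*, 1 rose and 4 fell (median -0.16), against 24.9% and 27.4%. *RRN11*, of the core factor, had log2 fold changes of -1.36 under cisplatin and -1.17 without it, and was called in both. The other core factor genes had smaller values. *RRN6* had 0.25 under cisplatin, where it rose (limma adjusted p = 0.0075), and -0.08 without it (adjusted p = 0.348). *RRN7* had -0.08 under cisplatin (adjusted p = 0.293) and -0.26 without it (adjusted p = 0.0481). The 2 calls among these 8 genes with cisplatin in W303 were *RRN6* at -0.60 (adjusted p = 0.0011) and *RRN7* at -0.40 (adjusted p = 0.0158), both falls, and the median was -0.10. Falls were called in 15.3% of all genes there.

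Of 10 genes for rDNA chromatin, elongation and termination, 4 rose and 6 fell in treated W303-Δ*sky1* (median -0.22), and 2 rose and 5 fell in untreated W303-Δ*sky1* (median -0.15). Of all genes, 32.8% rose and 37.8% fell in treated W303-Δ*sky1*, and 24.9% and 27.4% in untreated W303-Δ*sky1*. *FOB1*, whose protein blocks replication forks in the rDNA, rose by 1.02 under cisplatin and 0.65 without it, and *NSI1*, which encodes an rDNA terminator protein, rose by 0.70 and 1.13. *CTR9*, of the Paf1 elongation complex, fell, with -0.91 and -0.88 in the same order. *REB1* and *HMO1*, whose proteins bind rDNA, fell with cisplatin in W303, with log2 fold changes of -0.46 and -0.33. They were the 2 calls of the list there (median -0.02), against falls in 15.3% of all genes. Both were higher in treated W303-Δ*sky1* than in treated W303, by 0.51 and 0.22.

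Among 7 regulators of ribosome biogenesis genes, 0 were called with cisplatin in W303 by limma, with a median of 0.09. There 1 of the 7 had an unadjusted p under 0.05, against 42.1% of all genes. In W303-Δ*sky1*, 2 rose and 4 fell with cisplatin (median -0.21) and 1 rose and 3 fell without it (median -0.09). Of all genes, 32.8% rose and 37.8% fell with cisplatin, and 24.9% and 27.4% without it. The paralogs *DOT6* and *TOD6*, which encode repressors of ribosome biogenesis genes, moved in opposite directions. *DOT6* rose by 0.40 under cisplatin and 0.39 without it, and *TOD6* had -0.63 and -0.33. *SCH9*, the gene of a TORC1-regulated kinase, fell, with -0.52 and -0.51. Of 8 general stress reporters, 7 rose in treated and 2 in untreated W303-Δ*sky1* (medians 0.33 and 0.07), against 32.8% and 24.9% of all genes. The untreated count was thus near the share over all genes. *CTT1*, the cytosolic catalase gene, rose by 1.03 and 0.24. In W303 with cisplatin, 1 of the 8 reporters rose, *TFS1* at 0.27, and 1 fell, *CTT1* at -0.58, against 13.2% and 15.3% of all genes. The part of these reporter changes in the values of the polymerase genes was not tested.

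Across the 18 table columns, centred within each table, the mean of the 10 genes was followed most closely by *RPC40* (Pearson r = 0.96), *RPA49* (0.95), *RPA34* (0.93) and *RPC19* (0.90). *RPA43*, *RPA190* and *RPA12* had r of 0.89, 0.87 and 0.82. *RPA135* and *RPA14* hardly followed it, at 0.16 and -0.12, and *RRN3* ran against it at -0.86. These columns hold 12 arrays, of which 6 enter in more than 1 table, and each gene is itself part of the mean, so the r values are descriptions only. Of 5688 other genes, 354 had r of 0.9 or more with the same mean. The 10 highest were *NOP15*, *RBG1*, *EGD1*, *NOP1*, *FUI1*, *MRH1*, *IMP3*, *ATG27*, *NOP6* and *NOP58*, with r between 0.98 and 0.99. *IMP3* had the largest fall of these in treated W303-Δ*sky1*, -1.40, and *EGD1* had -0.51.

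The upstream neighbours of the 10 genes in the RefSeq R64 annotation lie on the opposite strand for 7 of them. *RPA43* and *RPA190* are such neighbours of each other, so that their start sites face apart across a shared upstream region. *RPA43* minus *RPA190* was 0.59 in untreated W303-Δ*sky1*, -0.32 with cisplatin in W303 and 0.03 in treated W303-Δ*sky1* (exact two-sided permutation p = 0.1, 0.1 and 0.7). *CRS1*, the cysteinyl-tRNA synthetase gene opposite *RPA49*, also fell, with -0.95 under cisplatin and -0.54 without it. *DBF20*, the protein kinase gene opposite *RPC40*, rose where *RPC40* fell, by 0.33 under cisplatin and 0.52 without it. YNL115C, opposite *RPC19*, rose by 0.52 under cisplatin (limma adjusted p = 5.59e-05) and had -0.10 without it (adjusted p = 0.413). *NTA1*, the amidase gene opposite *RPA12*, had -0.41 under cisplatin, where it fell (adjusted p = 0.000506), and -0.19 without it (adjusted p = 0.0617). *CPR1*, the cyclophilin gene opposite *RPA14*, had 0.05 and 0.07 in the same order and was not called.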

How the data were processed

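Total RNA was hybridized to 12 Affymetrix arrays, and the authors deposited log2 signals that RMA produced, running it once for each comparison on 6 arrays. RMA equalizes the distributions of the arrays it takes together, so a change in total mRNA per cell is not seen. The deposited tables also hold the authors' means, limma p-values and FDR values, which were not used. Each of the 18 signal columns was assigned to its array by name. Of 10715 probe sets, 5714 carry an *S. cerevisiae* gene, and the brightest was kept for each of 16 genes with several, which left 5698 genes.

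Comparisons were fitted within their tables using limma 3.58.1 (R 4.3.3) (empirical Bayes, Benjamini-Hochberg adjustment over 5698 genes). Tables were handled with pandas 2.3.3. Precision is limited by the 3 arrays of a group. No test was made across tables. The members, the gene lists and the rules were chosen with earlier results of these data known. Every one of the 10 genes is named. Genes of the other lists are named where they were called and had the largest rise or fall of their list, or for their role; *RPB3*, *RPO26*, *RRN7*, *SCH9*, *CTT1*, *TFS1*, *HMO1*, *CRS1*, *DBF20* and the other upstream neighbours were partly chosen after their values were seen. All listed names were matched, *NSI1* and the α-factor genes by locus tag.

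Arrays with the same replicate number deviated together from their group means, with r between 0.21 and 0.44, against at most 0.13 for different numbers. Within W303 the pairing comes from the divided cultures, and between strains it rests on the correlations. The number as a block was therefore one alternative. Others were quantile normalization, cyclic loess or median centring of the deposited values, a background filter, all probe sets, the mean of a gene's probe sets, an intensity trend, array weights, the DEG rule and each array left out. Removal of a trend with coding length was added after seeing the data. On single arrays, deviations from the group mean correlated with coding length at a Spearman r between -0.34 and 0.42. For the fold changes this r was 0.07 with cisplatin in W303, 0.02 between the untreated strains and -0.01 between the treated strains. The part of this trend in the fits with 1 array left out was not tested. In simulated data with 5698 genes, 100 were changed by 0.5 and 100 by 1 on the log2 scale, with independent noise on each array. Of the changes of 0.5, 84%, 70% and 85% were recovered for cisplatin in W303, the untreated strains and the treated strains. Fewer genes changed there than were called in the data, and no replicate pairing was simulated, so recovery in the data can differ.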

Additional observations from a re-analysis of the deposited data

Results flagged for a closer look

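*RPA135* was singled out because its strain difference ran in opposite directions without overlap of the arrays in either pair. All 3 untreated W303-Δ*sky1* arrays lay above all 3 untreated W303 arrays, by 0.24 on the log2 scale, and all 3 treated W303-Δ*sky1* arrays lay below all 3 treated W303 arrays, by -0.26. The untreated rise was not called (limma adjusted p = 0.0559), while the treated fall was (adjusted p = 0.0143). Without cisplatin 29.5% of all genes were separated with a rise, and under it 39.2% with a fall. The sign also differed for *RPA14*, at -0.06 untreated, where the groups overlapped, and 0.24 treated. Whether the treated and untreated differences of *RPA135* differ was not tested, because the tables were normalized separately.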

How the results depend on the processing

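Over all alternatives and comparisons, single genes of the 10 kept direction and side of the threshold in 444 fits, lost the call in 41, gained one in 23 and turned direction in 2. The turns were *RPA14* in untreated W303-Δ*sky1*, at 0.0072 with the length trend removed and from -0.11 to 0.0089 with 1 array left out, the highest without untreated W303 replicate 2. With the replicate number as a block (pairing), 5 genes fell with cisplatin in W303 and 2 rose in untreated W303-Δ*sky1*, and the block changed no call between the treated strains. With cisplatin in W303, 1 fell after quantile normalization, cyclic loess, length trend removal or with all probe sets, 6 with array weights and 0 by the DEG rule, and 0 rose under these except array weights, and with median centring. Leaving out 1 array gave 1 to 4 falls and 0 to 1 rise there. In untreated W303-Δ*sky1*, 2 rose with median centring, the intensity trend, array weights or length trend removal, 0 with all probe sets or the DEG rule, and 0 to 2 with 1 array left out, and 3 fell by the DEG rule. Between the treated strains the DEG rule left 1 rise and 5 falls. The cause of these shifts was not tested. Over all genes, 750 rises and 871 falls with cisplatin in W303 became 417 and 548 with all probe sets and 1138 and 1315 with array weights, and 430 and 520 without treated W303 replicate 2, 458 and 551 without treated W303 replicate 3, and 447 and 574 without untreated W303 replicate 3. The DEG rule left 90 and 87, 281 and 301, and 500 and 636, against 1419 and 1559 and then 1869 and 2154 called between the untreated and the treated strains.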
